A study of Homo sapiens with 6 samples.

Results

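The genes of the BCL2 family whose products promote apoptosis were examined in bulk RNA-seq of H9 cells treated with AZD4573, a selective inhibitor of the transcriptional kinase CDK9. The 10 genes, taken from the count table by their symbols, were BAX, BAK1, BCL2L11, BBC3, BID, PMAIP1, BAD, BIK, BMF and HRK, of 61541 genes counted. H9 is an established human line of cutaneous T-cell lymphoma (CTCL), a clonal derivative of HuT 78, and all libraries come from this line. The labels give its genotype as WT. In the comparison, 3 libraries were from cells given DMSO, the vehicle, and 3 from cells given AZD4573 for 4 h (the labels give no time for DMSO) at 50 nM. The comparison addressed which transcripts change when CDK9, which releases paused RNA polymerase II, is antagonized.

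BCL2 family proteins decide whether the outer mitochondrial membrane is permeabilized, the step that releases cytochrome c and activates caspases. The effectors BAX and BAK form the pores, the BH3-only proteins activate them or neutralize their inhibitors, and the anti-apoptotic members (MCL-1, BCL-2, BCL-XL) hold both in check by binding the BH3 helix of their pro-apoptotic relatives. In T cells, BIM (encoded by BCL2L11) is best known for the removal of autoreactive and cytokine-deprived cells.

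The BH3 helix is the feature that all 10 genes share, and its core is a leucine followed, 5 residues later, by an aspartate. A stretch of 36 coding bases around this core is shown for the 6 members with the smallest adjusted p-values, so that the shared codons can be seen. Capitals mark the leucine codon and the aspartate codon. The stretches are written 5′ to 3′ on the coding strand and were read from the canonical transcripts of GENCODE release 44 on GRCh38.
BAK1: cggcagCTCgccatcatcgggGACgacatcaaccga
BMF: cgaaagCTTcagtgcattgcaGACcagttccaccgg
BCL2L11: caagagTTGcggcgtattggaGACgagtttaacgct
PMAIP1: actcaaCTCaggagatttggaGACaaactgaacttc
BBC3: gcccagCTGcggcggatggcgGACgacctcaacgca
BAX: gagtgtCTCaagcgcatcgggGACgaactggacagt
The BAK1 stretch lies in exon 4 of 6 (chr6:33575387-33575422, minus strand) and the BMF stretch in exon 4 of 5 (chr15:40104195-40104230, minus strand). The BCL2L11 stretch lies in exon 3 of 4 (chr2:111150097-111150132, plus strand), the PMAIP1 stretch in exon 2 of 2 (chr18:59902667-59902702, plus strand) and the BAX stretch in exon 3 of 6 (chr19:48955781-48955816, plus strand). The BBC3 stretch lies in exon 3 of 4 (chr19:47226579-47226614, minus strand). The pattern searched was stricter than this core. It also required glycine, alanine or serine just before the aspartate, and isoleucine, leucine, methionine, phenylalanine or valine 2 residues after it. Each of the 10 members held exactly 1 stretch that met the pattern searched, while 12.4% of 20457 canonical coding transcripts held at least 1.

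Total counts ranged from 70367303 to 76571157 with DMSO and from 52101868 to 63795185 with AZD4573, and 17678 genes, all 10 members among them, passed a filter on low counts. Levels are given in CPM, counts relative to a library total scaled by TMM, with the SD over n = 3 libraries per group. The 3 T-cell receptor complex genes CD3D, CD3E and CD3G stood between 130 and 255 CPM in every library, whereas CD2, also a T-cell marker, was at most 0.166 CPM. With TMM, the summed level of the 8 T-cell markers was 813.9 to 849 CPM with DMSO and 1066 to 1104 CPM with AZD4573. This difference was not examined under other scalings. Markers of myeloid cells (5 of 5), erythroid cells (4 of 4), B cells (3 of 5), fibroblasts (3 of 4) and epithelial cells (2 of 4) were below 1 CPM in both groups. Of the defining genes, HBB and PDGFRA were at 0 in every library. The summed levels were 0.293 to 0.532 and 0.491 to 0.719 CPM for myeloid markers, and at most 0.0136 and 0.0526 CPM for erythroid markers. They were 61.0 to 67.0 and 92.5 to 103 CPM for B-cell markers, nearly all from CD79A, and 153.5 to 172.7 and 136.5 to 141.5 CPM for epithelial markers, nearly all from EPCAM. For fibroblast markers they were 5.00 to 7.40 and 3.55 to 4.36 CPM, nearly all from COL1A1, and the part of any marker in the results was not tested. The mRNAs encoded by the mitochondrial genome took 3.04 to 3.22% of counts with DMSO and 4.67 to 4.98% with AZD4573. Over all tested genes, the median log2 fold change was 0.03 with TMM, -0.71 with scaling to these 13 mRNAs and -0.08 with library size as the only scaling. In bulk RNA, fewer cells of a type and less RNA per cell cannot be told apart. Nothing states that the replicates were separate cultures, so that p-values measure the spread between these libraries, which may be technical.

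AZD4573 moved the pro-apoptotic members in both directions with TMM. Each called change was then smaller on the log2 scale than those of the anti-apoptotic MCL1, BCL2 and BCL2L1 described further on. BAK1 (-0.83) lay near MCL1 (-0.86), however. This order did not hold with scaling to the mitochondrially encoded mRNAs (BAK1 -1.57, MCL1 -1.60, BCL2 0.20, BCL2L1 0.63). With TMM scaling, BAK1, BMF, BBC3 and BCL2L11 fell and PMAIP1, BIK and BAX rose, whereas under scaling to the mitochondrially encoded mRNAs these 3 rises turned into falls. BID, BAD and HRK did not pass the test. At an adjusted p under 0.05, 4 of 10 members were thus lower, beside 37.4% of all genes tested, and 3 were higher, beside 37.3%. Together 7 of 10 were called, beside 74.7% of all genes, so that the share of members called was close to the background. With a fold change of at least 1.5 also required, BAK1 and BMF remained on the lower side, which is 2 members beside 23.7% of all genes, and 0 on the higher side, beside 22.7%. Groups did not overlap for 7 of 10 members, 4 lower beside 38.7% of all genes and 3 higher beside 39.0%. The median log2 fold change of the members was 0.00 (TMM), beside 0.03 for all genes tested, and 7 of 10 members lay between the 25th and 75th percentile of all genes (-0.59 to 0.59).

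**Figure D1:**
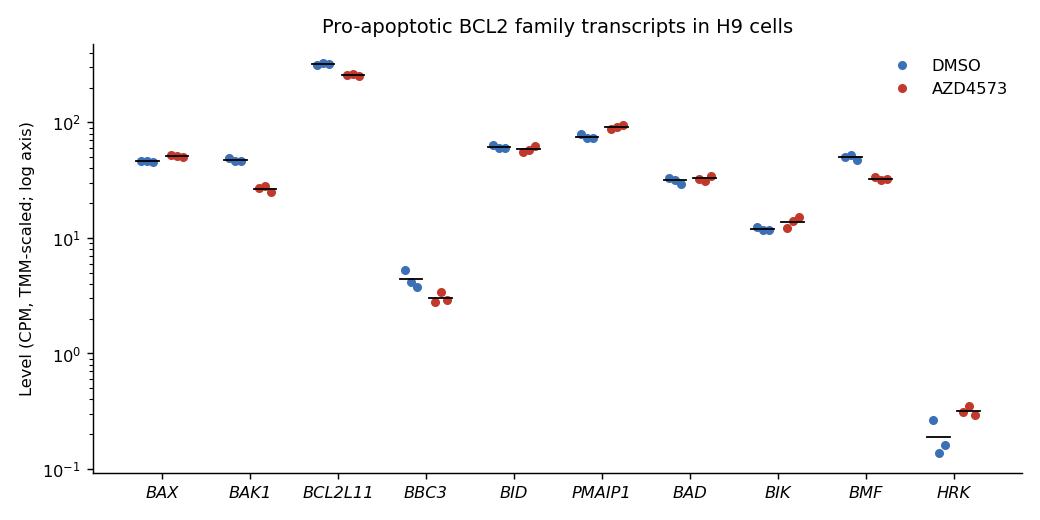
Level of each member in CPM (TMM-scaled, log axis) in every library, with DMSO in blue, AZD4573 in red, 1 point per library and a black bar at the mean of 3 libraries. The groups are apart and lower with AZD4573 for BAK1, BCL2L11, BBC3 and BMF. With this scaling they are apart and higher for BAX, PMAIP1 and HRK (the BAX and PMAIP1 rises reverse under scaling to mitochondrially encoded mRNAs), and overlap for BID, BAD and BIK.

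The pore-forming effectors moved apart. BAK1 (ENSG00000030110, GRCh38 chr6:33572547-33580293, minus strand, 6 exons in its canonical transcript) encodes BAK, which sits in the outer mitochondrial membrane of healthy cells. It was at 49.1, 46.7 and 46.5 CPM in DMSO replicates 1, 2 and 3 and at 26.9, 28.2 and 25.1 CPM in AZD4573 replicates 1, 2 and 3. Every AZD4573 library lay far below every DMSO library. The mean fell by 43.7%, from 47.4 ± 1.48 to 26.7 ± 1.54 CPM (SD, n = 3), or by 0.83 on the log2 scale (SE 0.06, 95% CI -0.95 to -0.70, edgeR adjusted p = 1.95e-08). This was the largest absolute change among the called members, and 18.2% of all genes tested had a log2 fold change as low or lower.

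BAX (ENSG00000087088, chr19:48954815-48961798, plus strand, 6 exons) encodes the effector that is mostly cytosolic until it is activated. BAX was at 46.0, 46.6 and 45.2 CPM with DMSO and at 51.9, 51.1 and 50.5 CPM with AZD4573. The groups did not overlap, but they lay close together beside those of BAK1. The mean went from 45.9 ± 0.740 to 51.2 ± 0.723 CPM (SD, n = 3), 1.11-fold higher with TMM (log2 fold change 0.16, SE 0.05, 95% CI 0.06 to 0.26, edgeR adjusted p = 0.0081) and lower under scaling to the mitochondrially encoded mRNAs (-0.58). The call was lost with library size as the only scaling (0.05, adjusted p = 0.331), with no filter on low counts (0.11, adjusted p = 0.124) and without DMSO replicate 3 (0.13, adjusted p = 0.0559).

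In CPM, BAK1 and BAX lay near each other with DMSO, at 46.5 to 49.1 and 45.2 to 46.6. Per kilobase of canonical transcript, BAK1 stood at 21.9 ± 0.682 and BAX at 57.8 ± 0.930 CPM per kb with DMSO. With AZD4573 they were at 12.3 ± 0.711 and 64.4 ± 0.909 CPM per kb (SD, n = 3). Their order with DMSO depends on the length used. Per kilobase of all annotated exons, BAK1 was above BAX with DMSO (21.45 and 17.75 CPM per kb) and below it with AZD4573 (12.09 and 19.79). The genes whose change over the 6 libraries was most like that of BAK1, by the Euclidean distance of centred log2 CPM among 9178 candidates, were ZNF143 (distance 0.0419), CDC23 (0.0438) and COLGALT1 (0.0502). Their log2 fold changes were -0.83, -0.83 and -0.82, near that of BAK1 by the way they were chosen.

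Among the BH3-only genes whose products activate BAX and BAK directly, BCL2L11 and BBC3 fell and BID did not pass the test. BCL2L11 (ENSG00000153094, chr2:111119378-111168444, plus strand, 4 exons) encodes BIM, which binds every anti-apoptotic relative. It was at 312.8, 323.8 and 322.4 CPM with DMSO and at 259.2, 261.7 and 251.1 CPM with AZD4573. The groups were well apart, with a narrow spread inside each. The mean fell by 19.5%, from 319.7 ± 5.94 to 257.3 ± 5.55 CPM (SD, n = 3; log2 fold change -0.31, SE 0.04, 95% CI -0.40 to -0.23, edgeR adjusted p = 6.49e-06). MIR4435-2HG, on the opposite strand, shares 727 of the 6742 exon bases of BCL2L11 and was at 3.52 to 5.87 CPM, and reads of the pair over the shared bases cannot be told apart when strand is not used.

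BBC3 (ENSG00000105327, chr19:47220822-47232766, minus strand, 4 exons) encodes PUMA, a potent inducer of apoptosis. It had few reads, with counts of 416, 305 and 277 under DMSO and 143, 196 and 177 under AZD4573. On the scaled level these were 5.30, 4.16 and 3.76 CPM against 2.81, 3.44 and 2.90 CPM. The groups did not overlap, but the lowest DMSO library and the highest AZD4573 library lay close to each other. The mean fell by 30.8%, from 4.41 ± 0.799 to 3.05 ± 0.340 CPM (SD, n = 3; log2 fold change -0.53, SE 0.15, 95% CI -0.85 to -0.21, edgeR adjusted p = 0.00545).

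BID (ENSG00000015475, chr22:17734138-17774770, minus strand, 6 exons) encodes the protein that caspase-8 cleaves to link death receptors with mitochondria. It was at 64.0, 60.2 and 59.9 CPM with DMSO and at 56.0, 57.4 and 62.8 CPM with AZD4573. The groups overlapped, since AZD4573 replicate 3 stood above 2 of the DMSO libraries. The means were 61.4 ± 2.26 and 58.7 ± 3.58 CPM (SD, n = 3), and the log2 fold change of -0.06 had a 95% CI of -0.18 to 0.06 (edgeR adjusted p = 0.31). BID was called lower with library size as the only scaling (-0.17, adjusted p = 0.011) and under scaling to the mitochondrially encoded mRNAs (-0.80, adjusted p = 1.15e-08).

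The other BH3-only genes, whose products act chiefly by occupying anti-apoptotic proteins, held the largest called rise and a large fall. BMF (ENSG00000104081, chr15:40087890-40108892, minus strand, 5 exons) encodes a protein that is tethered to the cytoskeleton through a dynein light chain. It was at 49.9, 51.8 and 47.5 CPM with DMSO and at 33.4, 32.0 and 32.5 CPM with AZD4573. All AZD4573 libraries were far below the DMSO libraries and close to one another. The mean fell by 34.4%, from 49.7 ± 2.16 to 32.7 ± 0.723 CPM (SD, n = 3; log2 fold change -0.61, SE 0.05, 95% CI -0.72 to -0.49, edgeR adjusted p = 1.83e-07).

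PMAIP1 (ENSG00000141682, chr18:59899996-59904305, plus strand, 2 exons) encodes NOXA, which binds MCL-1 with preference. It was at 79.4, 73.7 and 72.6 CPM with DMSO and at 87.2, 90.8 and 94.9 CPM with AZD4573. The groups did not overlap. The mean went from 75.2 ± 3.63 to 91.0 ± 3.89 CPM (SD, n = 3), 1.21-fold higher with TMM (log2 fold change 0.27, SE 0.05, 95% CI 0.16 to 0.38, edgeR adjusted p = 0.00026) and lower under scaling to the mitochondrially encoded mRNAs (-0.47).

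BIK (ENSG00000100290, chr22:43110750-43129712, plus strand, 5 exons) encodes a BH3-only protein of the endoplasmic reticulum. It was at 12.5, 11.6 and 11.7 CPM with DMSO and at 12.1, 14.1 and 15.3 CPM with AZD4573. AZD4573 replicate 1 lay inside the DMSO range, so that the groups overlapped. The means were 11.9 ± 0.479 and 13.8 ± 1.63 CPM (SD, n = 3), 1.16-fold higher with TMM (log2 fold change 0.22, SE 0.09, 95% CI 0.03 to 0.41, edgeR adjusted p = 0.0392) and lower under scaling to the mitochondrially encoded mRNAs (-0.53). The call was lost with library size as the only scaling (0.11, adjusted p = 0.255), with no filter (0.17, adjusted p = 0.0942), and with the replicate number as a block (0.21, adjusted p = 0.0609). It was also lost without DMSO replicate 2 (adjusted p = 0.127), DMSO replicate 3 (0.118), AZD4573 replicate 2 (0.108) or AZD4573 replicate 3 (0.215).

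BAD (ENSG00000002330, chr11:64269830-64284704, minus strand, 4 exons) encodes the protein that survival kinases hold inactive by phosphorylation. It was at 33.1, 32.0 and 29.3 CPM with DMSO and at 32.5, 31.2 and 34.5 CPM with AZD4573. The groups overlapped. The means were 31.5 ± 1.95 and 32.7 ± 1.66 CPM (SD, n = 3), with a log2 fold change of 0.06 (95% CI -0.08 to 0.19, edgeR adjusted p = 0.417) whose sign turned with library size as the only scaling (-0.05), under mitochondrial scaling (-0.68) and without DMSO replicate 3 (-0.0037). GPR137 on the opposite strand shares 404 of the 1708 exon bases of BAD and was at 13.4 to 17.4 CPM, so that reads over the shared bases are uncertain.

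HRK (ENSG00000135116, chr12:116856144-116881441, minus strand, 2 exons) encodes a BH3-only protein known from neurons and blood cells. Its counts were 21, 10 and 12 with DMSO and 16, 20 and 18 with AZD4573, where 3 counts, the limit that a count of 0 allows, correspond to 0.0382 to 0.0589 CPM per library. The levels were 0.268, 0.137 and 0.163 CPM against 0.314, 0.351 and 0.295 CPM. The groups did not overlap, yet the difference did not pass the test (log2 fold change 0.75, SE 0.40, 95% CI -0.13 to 1.62, edgeR adjusted p = 0.11). Its value was 0.01 under mitochondrial scaling.

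**Figure D2:**
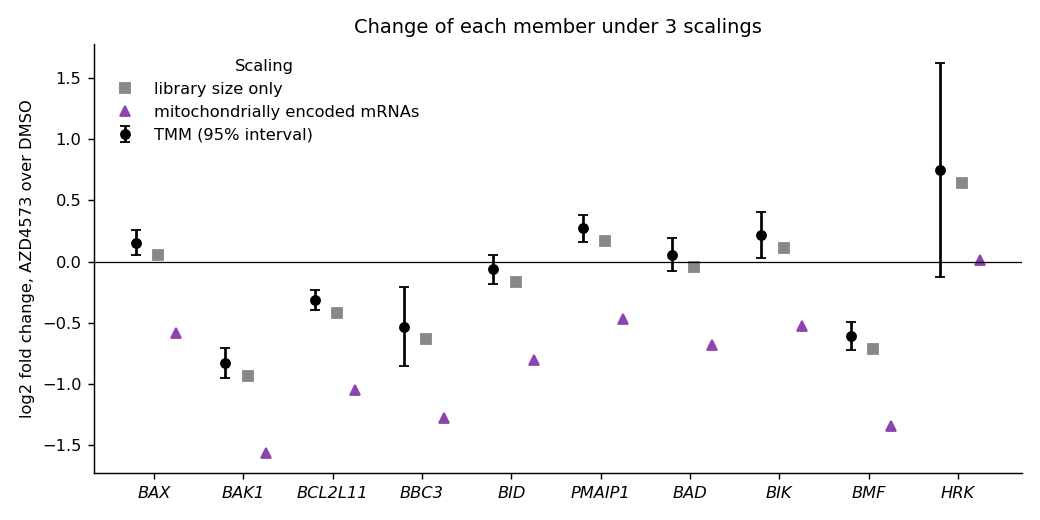
log2 fold change of each member (AZD4573 over DMSO, 3 libraries per group) under 3 scalings, with black points for TMM and their 95% confidence interval, grey squares for library size only and purple triangles for mitochondrially encoded mRNAs. BAK1, BCL2L11, BBC3 and BMF lie below 0 under each scaling, whereas BAX, PMAIP1 and BIK lie above 0 with TMM and library size and below 0 with mitochondrial scaling (-0.58, -0.47 and -0.53).

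A change of library scaling shifts all genes nearly alike, so that the differences between members and the all-gene median are fixed by construction. Relative to that median with TMM, BAK1 was at -0.85, BMF at -0.63, BBC3 at -0.56, BCL2L11 at -0.34, BID at -0.09, BAD at 0.03, BAX at 0.13, BIK at 0.19, PMAIP1 at 0.25 and HRK at 0.72. With mitochondrial scaling, 9 of 10 members were called lower, beside 67.2% of all genes tested, and 0 higher, beside 12.1%. Of all genes called, 15.3% were then higher in place of 50% with TMM.

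The promoters of BAK1 and BMF, the members that fell together by at least 1.5-fold, are shown so that the sequence before each start can be read beside its change. They are the 250 bases before the RefSeq start on GRCh38.p14, written 5′ to 3′ on the strand of the gene. Capitals mark the E-box CACGTG, the CCAAT box, the GC box GGGCGG and the TATA box TATAAA in either orientation (ATTGG is the CCAAT box on the other strand).
BAK1: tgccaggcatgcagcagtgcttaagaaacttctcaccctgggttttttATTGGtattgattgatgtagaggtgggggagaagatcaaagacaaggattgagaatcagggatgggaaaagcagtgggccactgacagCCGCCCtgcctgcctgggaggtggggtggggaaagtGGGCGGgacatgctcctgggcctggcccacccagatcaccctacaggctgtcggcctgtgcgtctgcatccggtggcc
BMF: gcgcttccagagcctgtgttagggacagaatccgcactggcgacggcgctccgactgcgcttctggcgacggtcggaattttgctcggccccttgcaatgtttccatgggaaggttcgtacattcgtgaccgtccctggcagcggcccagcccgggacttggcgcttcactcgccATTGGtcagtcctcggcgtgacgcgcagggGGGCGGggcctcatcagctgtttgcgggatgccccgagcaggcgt
The BAK1 window (chr6:33580277-33580526, minus strand) held 1 CCAAT and 2 GGGCGG, and the BMF window (chr15:40108880-40109129, minus strand) held 1 of each. Over 35116 RefSeq windows of the same length, 32.0% held CCAAT, 42.6% GGGCGG, 6.34% CACGTG and 10.7% TATAAA. Of the 9 members with a window, BAX held 4 copies of CACGTG and BBC3 held 1, while the others held 0. At least 3 copies were found in 28 of all windows (0.0797%). The BBC3 window belongs to a start 1468 bases from that of its canonical transcript, while the other members' windows lie at that start. A match describes these letters in this window and is not a measured site.

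Per kilobase of canonical transcript, BCL2L11 and BAX were the most abundant members, and AZD4573 exchanged their places. The order with DMSO was BCL2L11 (62.7 ± 1.17 CPM per kb), BAX (57.8 ± 0.930), PMAIP1 (39.6 ± 1.91), BAD (33.9 ± 2.10), BID (28.2 ± 1.04), BAK1 (21.9 ± 0.682), BIK (12.6 ± 0.504), BMF (10.6 ± 0.460), BBC3 (2.39 ± 0.433) and HRK (0.0326 ± 0.0120; all SD, n = 3). No neighbours in this order overlapped across the libraries. With AZD4573 the order was BAX (64.4 ± 0.909 CPM per kb), BCL2L11 (50.5 ± 1.09), PMAIP1 (47.9 ± 2.05), BAD (35.3 ± 1.78), BID (27.0 ± 1.64), BIK (14.6 ± 1.71), BAK1 (12.3 ± 0.711), BMF (6.96 ± 0.154), BBC3 (1.65 ± 0.184) and HRK (0.0553 ± 0.00491). Here BCL2L11 and PMAIP1 overlapped, as did BIK and BAK1. The order depends on the length used, since with the length of all annotated exons BAX took place 5 with DMSO and place 3 with AZD4573, and PMAIP1 places 2 and 1.

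The composition of the summed level, which does not depend on the scaling of the libraries, moved from BAK1 and BCL2L11 towards BAX and PMAIP1. The sum itself does depend on it and was not computed under other scalings. With TMM, the sum over the 10 members was 263.2 to 275.3 CPM per kb with DMSO and 256.6 to 265.0 with AZD4573. BAX made up 21.0, 21.7 and 21.6% of this sum with DMSO and 25.46, 24.74 and 23.97% with AZD4573. PMAIP1 went from 14.7 ± 0.437 to 18.4 ± 0.490%, and neither gene overlapped between groups. BCL2L11 went from 23.3 ± 0.888 to 19.4 ± 0.685%, BAK1 from 8.11 ± 0.133 to 4.73 ± 0.324% and BMF from 3.93 ± 0.136 to 2.67 ± 0.0921% (SD, n = 3). BID stayed near 10.4% in both groups (10.45 ± 0.215 and 10.35 ± 0.466%), and the sign of its small difference turned with the length of all exons (0.148 percentage points). The size of the other changes depends on the length too: with all exons, BAX gained 1.88 percentage points in place of 3.29, from a DMSO share of 10.1%, PMAIP1 5.61 in place of 3.69, and BIK 1.66 in place of 0.928. Read as plain counts, the members together took 0.0667 to 0.0678% of all counts with DMSO and 0.0546 to 0.0549% with AZD4573. BCL2L11 had the most counts of any member in every library and so weighs most in these percentages.

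**Figure D3:**
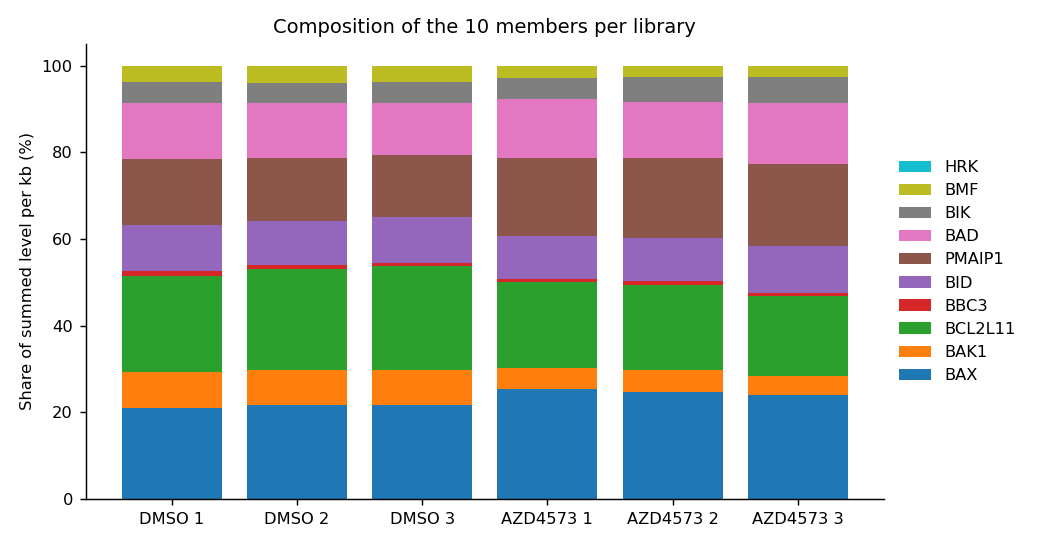
Share (%) of each member in the summed level per kilobase of canonical transcript of the 10 members, as stacked bars from 0 to 100, 1 bar per library (3 DMSO, 3 AZD4573). BAX is wider and BAK1 narrower in each AZD4573 library than in any DMSO library (23.97 to 25.46% against 21.01 to 21.71%, and 4.37 to 5.00% against 7.96 to 8.23%).

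Because the pro-apoptotic members act against their anti-apoptotic relatives, each was set against MCL1, BCL2 and BCL2L1 as a ratio of counts within the same library, which no scaling can move. These guardians moved apart. MCL1, which encodes the short-lived MCL-1, was at 152.6, 154.6 and 154.4 CPM with DMSO and at 81.5, 85.5 and 88.0 CPM with AZD4573 (log2 fold change -0.86, SE 0.04, edgeR adjusted p = 1.02e-09). BCL2 was at 96.2, 95.3 and 93.4 CPM with DMSO and at 173.1, 190.1 and 185.0 CPM with AZD4573 (0.94, SE 0.05, adjusted p = 6.43e-10). BCL2L1, which encodes BCL-XL, was at 844.3, 831 and 795.1 CPM and at 1927, 2265 and 2189 CPM (1.37, SE 0.06, adjusted p = 2.41e-10). No library of one group reached the other group for any of these 3 genes, and their directions held under mitochondrial scaling (-1.60, 0.20 and 0.63).

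Per count of MCL1, 8 of 10 members were higher in every AZD4573 library than in every DMSO library, beside 72.8% of all genes tested. PMAIP1 went from 0.489 to 1.07 counts per MCL1 count, 2.19-fold higher, and BAX from 0.299 to 0.603, 2.02-fold higher. BIK was 2.09-fold, BAD 1.89-fold, BID 1.73-fold, BCL2L11 1.46-fold and BMF 1.19-fold higher, and HRK, on 10 to 21 counts, 3.16-fold. BAK1, whose own fall was near that of MCL1, went from 0.308 to 0.315 (1.02-fold, exact permutation p = 0.8), and BBC3 was 1.26-fold higher with groups that overlapped (exact permutation p = 0.3).

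Per count of BCL2, the direction was the opposite, with 9 of 10 members lower and no overlap, beside 74.1% of all genes, and 0 higher, beside 10.3%. BAK1 went to 0.293 of its DMSO ratio, BMF to 0.342, BBC3 to 0.363, BCL2L11 to 0.419, BID to 0.498, BAD to 0.542, BAX to 0.580, BIK to 0.601 and PMAIP1 to 0.629. HRK overlapped (0.907, exact permutation p = 0.9). BCL2L11 had 3.36 counts per BCL2 count with DMSO and 1.41 with AZD4573.

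Per count of BCL2L1, all 10 members were lower without overlap, beside 81.2% of all genes (6.75% were higher). The ratios went to between 0.218 (BAK1) and 0.676 (HRK) of their DMSO values, and that of PMAIP1 to 0.469. BCL2L11 had 0.388 counts per BCL2L1 count with DMSO and 0.121 with AZD4573. In each of the 27 ratios without overlap, the two-sided exact permutation test gave p = 0.1, the smallest that 3 against 3 libraries allow, and 0.111 with Benjamini-Hochberg adjustment over the 30 ratios, so that this design cannot reach 0.05. The shares of all genes beside these counts show that such ratios moved alike for most genes.

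**Figure D4:**
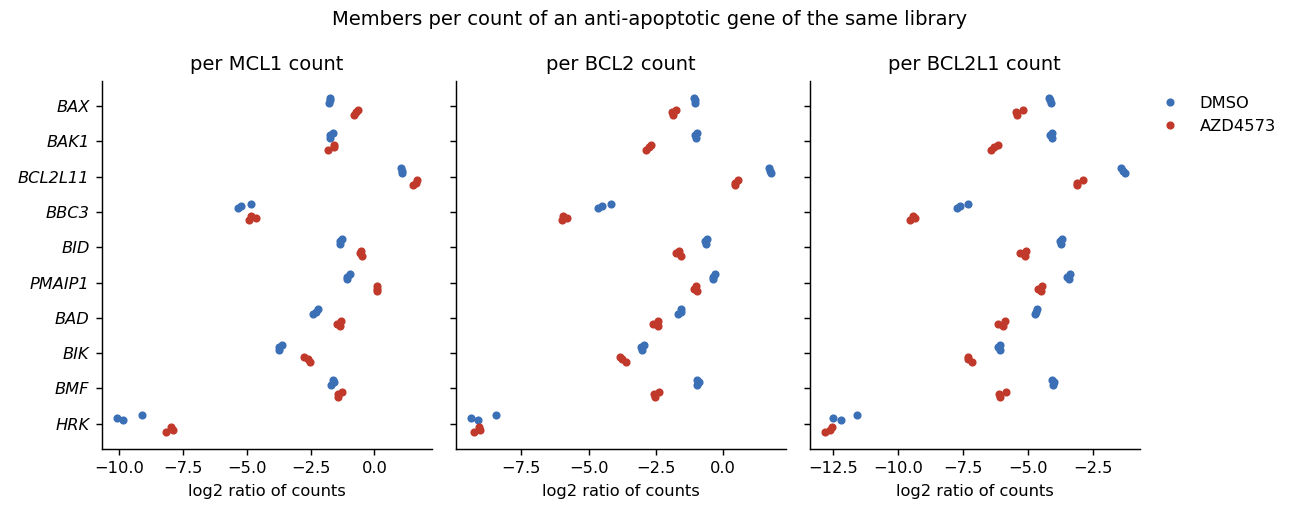
log2 ratio of the counts of each member to those of MCL1, BCL2 and BCL2L1 in the same library (x axis, 1 panel per guardian), with DMSO in blue and AZD4573 in red and 1 point per library. Per MCL1 count the AZD4573 points lie to the right of the DMSO points except for BAK1 and BBC3, per BCL2 count they lie to the left except for HRK, and per BCL2L1 count they lie to the left for all 10 members.

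Other genes of the same pathway were read from lists of fixed membership in the same fit. The counts stand beside all genes tested, of which 37.4% were lower and 37.3% higher with TMM. Under mitochondrial scaling these shares were 67.2% and 12.1%. Of 6 anti-apoptotic BCL2 genes, 4 were higher and 1 lower, a split of 4 and 2 under mitochondrial scaling, and the median log2 fold change was 1.16, beside 0.03 for all genes. MCL1 was the lower one, and besides BCL2 and BCL2L1 the higher ones were BCL2L2 and BCL2L10, both on a mean of under 5 CPM. Of 11 other BCL2-related genes, 10 were tested, 4 were lower and 5 higher, whereas 8 were lower and 0 higher under mitochondrial scaling. BNIP1, which acts in membrane fusion, fell from 5.78 ± 0.469 to 1.73 ± 0.313 CPM (-1.75), MOAP1, a partner of BAX, from 39.8 ± 0.532 to 27.8 ± 0.632 CPM (-0.52), and BCL2L13, a mitophagy receptor, from 41.8 ± 1.85 to 33.9 ± 1.51 CPM (-0.30). The mitophagy receptor BNIP3L rose from 54.2 ± 3.93 to 94.0 ± 5.13 CPM (0.79, and 0.05 under mitochondrial scaling). BNIP3 (0.44) and the autophagy gene BECN1 (0.34) rose with TMM and were lower under mitochondrial scaling (-0.30 and -0.40).

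Of 20 genes of the mitochondrial outer membrane, the apoptosome and the caspases, 14 were lower and 2 higher, and under mitochondrial scaling 20 were lower. Their median log2 fold change was -0.30. Over all genes tested, 37.4% were lower and 37.3% higher, and 67.2% were lower under mitochondrial scaling. DNM1L, the mitochondrial fission GTPase, was at 102.4, 103.5 and 101.0 CPM with DMSO and at 40.2, 37.0 and 37.0 CPM with AZD4573, and fell by 62.8% (-1.43, edgeR adjusted p = 5.41e-11). The nuclease gene DFFB fell from 23.1 ± 0.556 to 9.39 ± 0.676 CPM (-1.30). XIAP, singled out after its value was seen because it encodes an inhibitor of caspases, was among the lower genes too (81.7 ± 2.02 to 68.0 ± 2.22 CPM, -0.26). The porin genes VDAC1 (0.44) and VDAC2 (0.11, edgeR adjusted p = 0.0485) rose with TMM and were lower under mitochondrial scaling (-0.30 and -0.63). The call of VDAC2 was lost with library size as the only scaling (0.0019, adjusted p = 0.969), with no filter (adjusted p = 0.38), with the replicate number as a block (0.0744), and without DMSO replicate 2 (0.237), DMSO replicate 3 (0.186), AZD4573 replicate 2 (0.17) or AZD4573 replicate 3 (0.136).

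Of 11 transcription factor genes known to act on members, 10 were tested, 5 were lower and 4 higher, against 9 and 0 under mitochondrial scaling. The shares over all genes tested were 37.4% lower and 37.3% higher, against 67.2% and 12.1%. DDIT3, which encodes the stress factor CHOP, was at 11.9, 11.3 and 11.3 CPM with DMSO and at 0.746, 0.596 and 0.557 CPM with AZD4573, and fell by 94.5% (-4.19, edgeR adjusted p = 2.44e-11). FOXO1 fell from 24.1 ± 0.786 to 6.75 ± 0.855 CPM (-1.84) and FOXO3 from 105.6 ± 2.61 to 81.8 ± 5.45 CPM (-0.37), while FOXO4 rose from 11.2 ± 0.728 to 19.1 ± 0.787 CPM (0.77, and 0.03 under mitochondrial scaling). MYC (0.17) rose with TMM and was lower under mitochondrial scaling (-0.58).

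Of 23 partners and modifiers of the member proteins, 11 were lower and 9 higher, against 20 and 0 under mitochondrial scaling, with a median of 0.01 (TMM). Among all genes tested the shares were 37.4% and 37.3%, against 67.2% and 12.1%. The PIM kinases, which phosphorylate BAD, did not move together. PIM1 fell from 128.4 ± 2.57 to 56.3 ± 4.24 CPM (-1.19) and PIM2 from 127.5 ± 3.54 to 69.7 ± 4.50 CPM (-0.87), while PIM3 rose from 368.8 ± 7.13 to 625.5 ± 66.3 CPM (0.76, and 0.02 under mitochondrial scaling). BTRC, a ubiquitin ligase subunit, fell from 100.3 ± 2.03 to 52.6 ± 8.50 CPM (-0.93). The kinase genes MAPK3 (0.60) and AKT2 (0.44) rose with TMM, whereas under mitochondrial scaling AKT2 was lower (-0.30) and MAPK3 did not pass the test (-0.14, edgeR adjusted p = 0.0719).

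**Figure D5:**
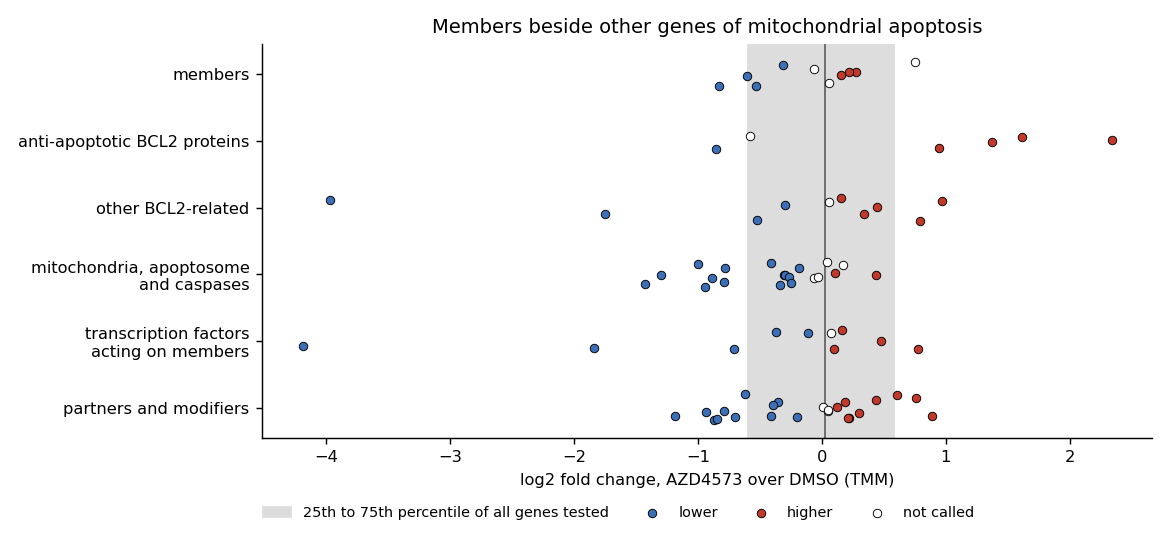
log2 fold change (AZD4573 over DMSO, TMM) of each tested gene of the members and of 5 lists (rows), with 1 point per gene, blue where lower, red where higher and white where not called at an adjusted p under 0.05. The grey band runs from the 25th to the 75th percentile of all 17678 genes tested (-0.59 to 0.59), and 7 of 10 members lie in it, while the red points of every list but the anti-apoptotic one are not called higher under mitochondrial scaling.

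In their gene structure, the members had a lower median span and transcript length than the coding genes tested. The median genomic span was 16920 bases, beside 31490 bases for 13423 coding genes tested, and ran from 4310 bases (PMAIP1) to 49067 bases (BCL2L11). The median length of the canonical transcript was 2034 bases, beside 3241 bases, and that of its 3′ UTR 1346 bases, beside 1242 bases. The motif ATTTA, the core of AU-rich elements, was searched on the transcript strand of the 3′ UTR of that transcript. It was found 8 times in BCL2L11 and HRK, 5 times in PMAIP1 and BMF, 2 times in BID, 1 time in BIK and 0 times in BAX, BAK1, BBC3 and BAD, with a median of 1.5 beside 2 for the coding genes tested. The 4 members that fell thus held 0, 5, 0 and 8 copies (BAK1, BMF, BBC3 and BCL2L11).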

How the data were processed

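The authors trimmed reads with cutadapt 2.3, aligned them to GRCh38 with STAR 2.7.8a and deposited expected counts per gene from RSEM 1.3.3 (default parameters, which ignore strand), as whole numbers without normalization. The labels give poly(A) RNA, the supplemental methods rRNA depletion, and an exposure of 6 h is also given beside 4 h. The 5 reporter rows of the table (0 counts) were left out. Libraries were grouped by their labels. Counts were fitted over all genes in R 4.3.3 with edgeR 4.0.16 (TMM, filter on low counts with a minimum of 10, quasi-likelihood test, Benjamini-Hochberg adjustment, no replicate block). Ratios used counts plus 0.5 and an exact two-sided permutation test. Pairs of libraries of a group differed by more than counting noise. Limits from counts cover counting error only. The procedure was tested on simulated data.

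The members and lists were chosen with earlier results of these data known. Named were all members, MCL1, BCL2 and BCL2L1, in each list up to 3 falls and 3 rises by size (adjusted p under 0.05, no overlap, at least 5 CPM in the higher group), and the 3 genes most like BAK1 (at least 10 CPM). Some genes that met this rule are not reported here. Alternatives were RLE factors, library size only, scaling to the 13 mitochondrially encoded mRNAs, the filter left out or set at 10 counts in every library, DESeq2 1.42.0, a replicate block, each library left out, a fold change of at least 2, ratio pseudocounts of 1 and 0.1 and, chosen after seeing the data, the length of all exons. Exons came from GENCODE release 44 (61369 of 61541 genes matched) and promoters from RefSeq, GRCh38.p14.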

Additional observations from a re-analysis of the deposited data

How the results depend on the processing

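Of 130 alternative values for the 10 members over 13 settings, 112 stayed on the same side of 0 and of the threshold, 10 lost the call, 2 gained it and 6 changed sign. Scaling to the mitochondrially encoded mRNAs gave 9 members lower (6 by at least 1.5-fold) and 0 higher, with BAX at -0.58, PMAIP1 at -0.47, BIK at -0.53 and BAD at -0.68. By list it gave 2 lower anti-apoptotic genes, 8 lower and 0 higher other BCL2-related genes, 0 higher mitochondrial and caspase genes, 9 lower and 0 higher transcription factors, and 20 lower and 0 higher partners. Library size only gave 1 member, 1 mitochondrial gene and 2 transcription factors higher, and BAD at -0.0467. With no filter 1 member was higher. With at least 10 counts in every library 1 member was lower by 1.5-fold (BAK1), and with a fold change of at least 2 there were 0. Leaving out 1 library at a time left 1 to 3 members higher (1 without DMSO replicate 3, PMAIP1), 1 to 2 mitochondrial genes (1, VDAC1, without DMSO replicate 2 or 3 or AZD4573 replicate 2 or 3) and 2 to 4 transcription factors (2 without AZD4573 replicate 2 or 3). It put BAD between -0.0037 (without DMSO replicate 3) and 0.0875, the log2 ratio of BAK1 to MCL1 between -0.0063 and 0.0977 (negative without AZD4573 replicate 1 or 2), and that of HRK to BCL2 between -0.34 and 0.12 (positive without DMSO replicate 1). With the length of all exons, the share of BID went from a fall to a rise of 0.148 percentage points, while that of BAX rose by 1.88 (3.29 with the canonical length), PMAIP1 by 5.61 (3.69) and BIK by 1.66 (0.928). Same-numbered libraries did not deviate together (correlations -0.0208, 0.0417 and 0.0316), and the replicate block left 1 mitochondrial gene higher and took the call of BIK (0.21). What caused these shifts was not tested. HRK rested on 10 to 21 counts per library.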
